A study of Homo sapiens with 6 samples.

Results

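The genes described here encode the proteins that coat the actin filament and close its slow-growing end: the tropomyosins *TPM1*, *TPM2*, *TPM3* and *TPM4*, the tropomodulins *TMOD1*, *TMOD2* and *TMOD3*, and caldesmon, *CALD1*. They are 8 of the 26485 genes in the count table, taken by symbol, and all 8 passed the filter on low counts. The genes were chosen by the normalized counts of these same 6 cultures, since the rise of *TPM4* after knockdown was known when the family was picked. For this reason the differences of the members between these groups are given as a description. Standard errors and 95% intervals come from the test statistic of the fit. The fit sets each gene's spread between cultures partly from that of other genes. The count of members past the threshold of the fit over all genes supports nothing.

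RNA-seq was performed on 6 cultures of HEK293, an established line grown from embryonic kidney. In 3 cultures the lncRNA *HSALNG0134318*, which lies in the 22q11.2 region, was knocked down by transient transfection with a Smart Silencer, which combines small interfering RNAs with antisense oligonucleotides, and 3 cultures served as control, with the genotype given as wild type. The question put to these libraries was which genes change when this lncRNA is reduced. The column labels of the knockdown replicates end in 1, 4 and 5 and those of the control replicates in 10, 11 and 1. What these numbers stand for is not stated. The labels do not name what the control cultures received, and the level of the lncRNA itself was not analysed here. The cells are a single immortalised line, and polyA RNA was read without counting cells, so more RNA per cell and more cells that hold the RNA cannot be told apart.

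Tropomyosins are coiled-coil proteins that join head to tail along both grooves of the actin filament and govern which other proteins, myosins and cofilin among them, can reach it. The tropomyosin genes together make many isoforms through alternative promoters and exons. In muscle they work with troponin, whereas in other cells different isoforms mark different filament populations, such as stress fibres. Tropomodulins cap the pointed end of the filament and bind the tropomyosin that lies there, and caldesmon binds actin, tropomyosin and myosin in smooth muscle and in other cells.

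Total counts were 14732648, 16869948 and 14820372 in control replicates 1 to 3 and 15583535, 14444629 and 13900965 in the knockdown replicates. Knockdown libraries differed from each other by 0.271 to 0.315 (root mean square difference of log2 counts per 1000000 reads, CPM, over tested genes). Control replicates 1 and 3 differed by 0.369, and control replicate 2 stood 0.445 and 0.485 from them. Control replicate 3 lay 0.397 to 0.413 from the knockdown libraries, closer than to control replicate 2, so the groups did not separate cleanly over all genes. Normalized counts were scaled to a common effective library size, and a gene was called where its Benjamini-Hochberg adjusted p in edgeR lay under 0.05. The 7 markers fixed for HEK293 cells, among them *PAX2* and *VIM*, were all tested, none was called, and their summed level was 1324.1 to 1729.7 CPM in control and 1499.5 to 1826.2 in knockdown cultures.

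*TPM4* carries the largest difference of the family, so the sequences before its start sites are shown first. RefSeq lists 16 promoter windows for the 8 genes, 3 of them for *TPM4*, and the 250 bases before each start were searched on both strands for 4 motifs: the CArG box bound by serum response factor (SRF), CATTCC bound by TEAD factors, GGGCGG bound by Sp1, and TATAAA. No match of the CArG box overlapped another motif in these windows. Of 35116 RefSeq promoter windows, 1.16% held a CArG box, and among the member windows it was found in 1 of 16, the upstream window of *TPM4*, at -173 to -164 from the start. The longest run of bases that no annotated transcript of *TPM4* uses as exon is printed 5′ to 3′ on the plus strand of GRCh38.p14. Exons of other genes were not checked, and the CArG box is in capitals. The upstream window, chr19:16067307-16067533, and the next one, chr19:16076245-16076438, which holds no CArG box, are given for comparison. Only the exact form CCWWWWWWGG, with W for A or T, was counted. The next window holds CCAAATAAGT, which differs from the marked CCAAATAAGG in its last base.
TPM4 upstream promoter: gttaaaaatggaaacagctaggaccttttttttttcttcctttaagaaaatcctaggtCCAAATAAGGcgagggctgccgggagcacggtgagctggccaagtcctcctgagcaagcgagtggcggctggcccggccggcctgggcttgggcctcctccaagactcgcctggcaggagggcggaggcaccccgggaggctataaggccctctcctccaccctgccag
TPM4 second promoter: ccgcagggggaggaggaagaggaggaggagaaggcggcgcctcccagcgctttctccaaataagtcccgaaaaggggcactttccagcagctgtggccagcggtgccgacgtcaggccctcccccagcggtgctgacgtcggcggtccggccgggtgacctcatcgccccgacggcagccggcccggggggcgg

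GGGCGG was found in 11 of 16 member windows, in 7 of the 8 genes, against 42.64% of all windows. CATTCC was found in 2 of 16, both in *CALD1*, against 11.89%, and TATAAA in 2 of 16, 1 each in *TMOD1* and *CALD1*, against 10.72%. A match is a stretch of letters and was not tested as a binding site, and gene-level counts do not show which promoter was used.

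In the fit over all genes 1 of the 8 members, *TPM4*, lay past the threshold, beside 10% of the 14877 genes tested, and the choice of the family for the rise of *TPM4* had fixed that outcome. Calls of higher genes made up 5.40% and calls of lower genes 4.64% of all tested genes. The normalized counts of the groups did not overlap for 4 of 8 members, *TPM1*, *TPM2*, *TPM4* and *TMOD2*, beside 32.2% of all tested genes. Since the members were picked with this contrast known, nothing is read from these shares. The median log2 fold change was 0.21 over the members and -0.02 over all tested genes.

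**Figure D1:**
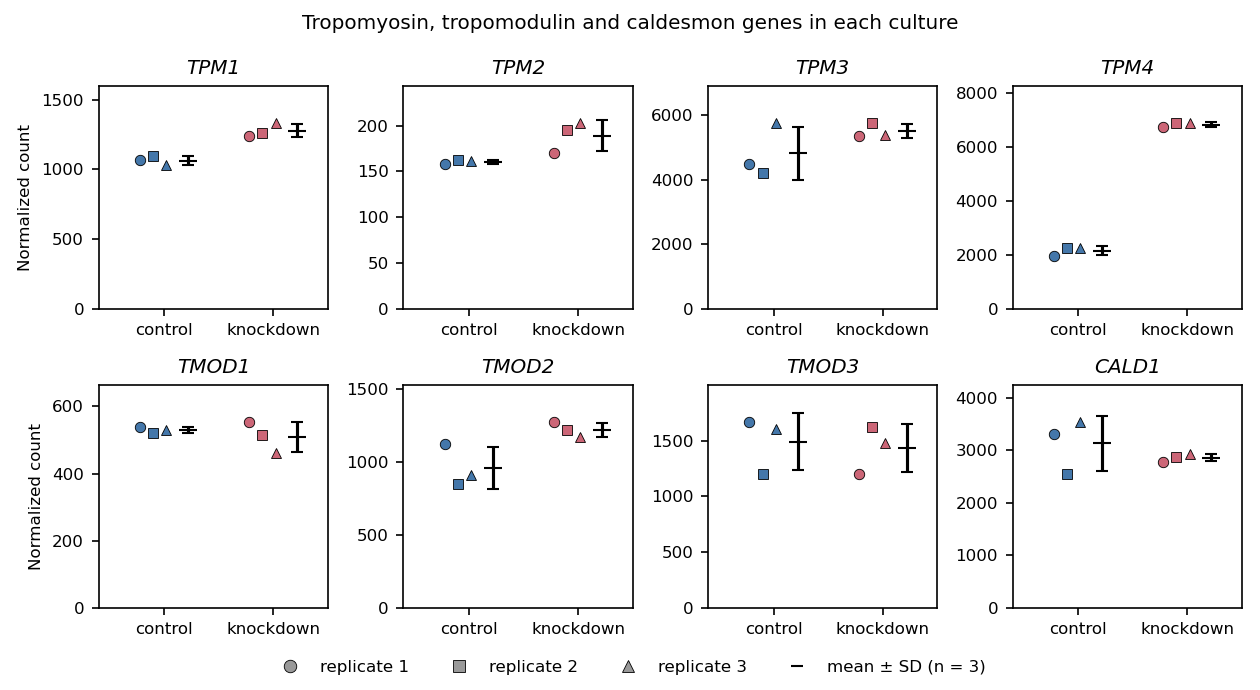
Normalized counts (vertical axes, each from 0) of the 8 genes in each control and knockdown culture, with symbols for replicates 1 to 3 and bars for the mean ± SD (n = 3). The knockdown cultures of *TPM4* sit between 6717.6 and 6871.5, far above its control cultures, while the groups of *TPM3*, *TMOD1*, *TMOD3* and *CALD1* overlap.

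*TPM4*, which encodes nonmuscle tropomyosins and lies on the plus strand of chromosome 19 between 16067021 and 16103002 in GENCODE release 44 (hg38), was read at 1944.8, 2237.5 and 2237.7 normalized counts in the control cultures. In the knockdown cultures it was read at 6717.6, 6871.5 and 6860.7. All knockdown cultures lay above all control cultures, and the spread within either group was small against the gap. The mean went from 2140.0 ± 169.0 to 6816.6 ± 85.9 (SD, n = 3 each), a fold of 3.18 with a 95% interval of 2.78 to 3.65, or a log2 fold change of 1.67 (SE 0.09). Under 14 alternative settings (other scalings, filters and tests, and each culture left out) the log2 fold change lay between 1.61 and 1.71. Ordered by log2 fold change, *TPM4* ranked 1 of the 1339 called genes whose groups did not overlap and whose counts averaged 100 or more. This ranking restates the pattern for which the family was picked. *TPM4* shares 803 exonic bases with an annotated gene on the opposite strand that has no counts of its own here. Whether reads were counted by strand is not given in the sources used here.

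*TPM3*, the tropomyosin gene with the most reads in the control cultures, lies on chromosome 1 (154155308 to 154194648, minus strand). Its normalized counts were 4494.8, 4203.7 and 5747.2 in control and 5359.4, 5755.3 and 5391.1 in knockdown cultures. The groups overlapped, because control replicate 3 was as high as the knockdown cultures. Its log2 fold change was 0.19 (SE 0.12, 95% interval -0.06 to 0.45), and it ranged from 0.10 to 0.34 with any 1 culture left out. The processed pseudogene *TPM3P9*, the 1 row in the table of the 14 pseudogenes and antisense genes annotated for the members, had a log2 fold change of 0.00 (SE 0.15), and the handling of reads that map to several places is not given in the sources used here.

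*TPM1*, which encodes the alpha tropomyosin of striated muscle and also isoforms of other cells, lies on chromosome 15 (63042620 to 63071915, plus strand). It was read at 1063.2, 1096.9 and 1027.8 normalized counts in control and at 1239.6, 1259.1 and 1331.1 in knockdown cultures. The groups did not overlap, and the distance between them was a small part of the level. The log2 fold change was 0.26 (SE 0.09, 95% interval 0.07 to 0.46), and 0.23 to 0.29 with any 1 culture left out. The antisense gene *TPM1-AS* shares 2645 exonic bases with it, and whether reads were counted by strand is not given in the sources used here.

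*TPM2*, which encodes beta tropomyosin of muscle, lies on chromosome 9 (35681992 to 35690056, minus strand) and was the least read tropomyosin gene. Normalized counts were 158.2, 162.4 and 161.5 in control and 169.7, 195.1 and 202.9 in knockdown cultures. Knockdown replicate 1 lay closest to the control cultures, without overlap. On the log2 scale the fold change was 0.23 (SE 0.14, 95% interval -0.08 to 0.55), and 0.18 to 0.31 with any 1 culture left out.

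The make-up of the tropomyosin reads differed between the groups. *TPM4* held 25.4%, 29.1% and 24.4% of the reads of the 4 tropomyosin genes in the control cultures and 49.8%, 48.8% and 49.8% in the knockdown cultures. *TPM3* held 58.6% ± 4.03 in control and 39.9% ± 0.895 in knockdown cultures (SD, n = 3 each), *TPM1* 13.1% ± 1.66 and 9.26% ± 0.362, and *TPM2* 1.98% ± 0.19 and 1.37% ± 0.108. The shares of the other genes were thus lower in the knockdown cultures although none of their mean normalized counts was. Weighted by the length of the canonical transcript, the share of *TPM4* was 33.8% ± 1.66 in control and 58.1% ± 0.423 in knockdown cultures. The share of reads differed by 23.2 percentage points, and by 22.2 to 24.6 with any 1 culture left out.

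**Figure D2:**
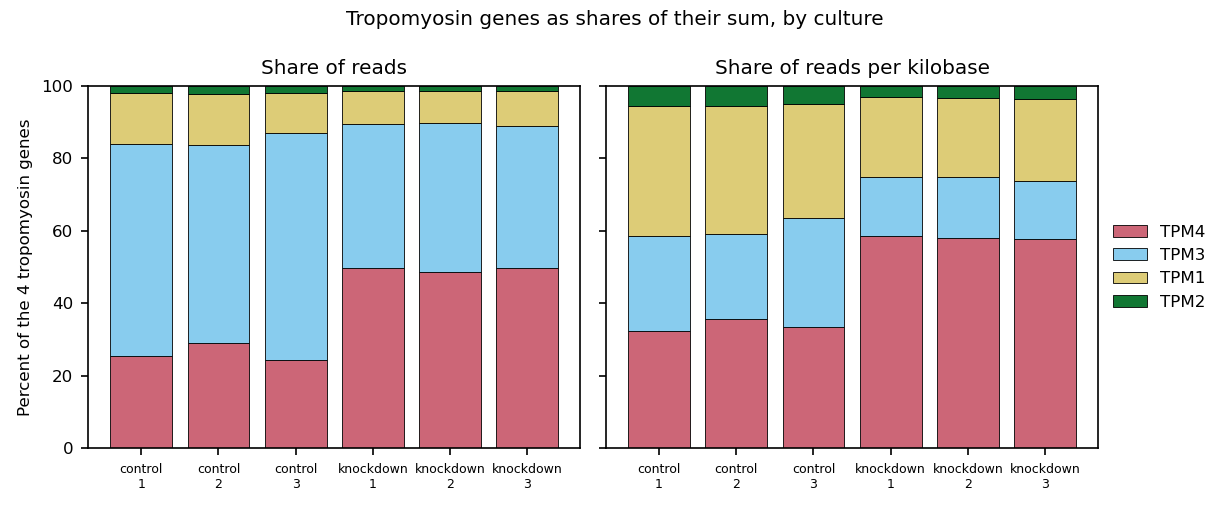
Stacked bars of the share (percent, vertical axis from 0 to 100) that each tropomyosin gene holds of the 4 genes' reads in each culture, by reads (left) and by reads per kilobase of the canonical transcript (right). *TPM4* takes 24.4% to 29.1% of the reads in the control cultures and 48.8% to 49.8% in the knockdown cultures.

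Summed over the 4 tropomyosin genes, normalized counts were 8178.6 ± 862.5 in control and 13784.3 ± 297.4 in knockdown cultures, a ratio of 1.69. *TPM4* made up 83.4% of that difference, *TPM3* 12.2%, *TPM1* 3.82% and *TPM2* 0.508%. Without *TPM4*, the sum of the other 3 was 6038.6 ± 787.9 and 6967.7 ± 223.5, a ratio of 1.15, and these groups overlapped, since control replicate 3 (6936.5) lay above knockdown replicates 1 (6768.7) and 3 (6925.1).

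Levels of different genes were compared per kilobase of the canonical transcript, in CPM. In the control cultures *TPM1* (57.8 ± 2.25) and *TPM4* (57.2 ± 4.29) were highest and differed by less than their spread, followed by *TPM3* (45.1 ± 7.31) and *CALD1* (41.3 ± 6.68), which overlapped. *TMOD3* (12 ± 2.01), *TMOD1* (10.6 ± 0.208), *TPM2* (8.94 ± 0.116) and *TMOD2* (6.95 ± 1.07) followed, and *TMOD3* and *TMOD1* overlapped. In the knockdown cultures *TPM4* was at 183.6 ± 2.6, and the next gene, *TPM1*, at 69.9 ± 2.95. The order rests on the length: per kilobase of all annotated exons, *CALD1* (21.2) and *TPM3* (21.0) led the control cultures, *TPM4* was at 11.4 and *TPM1* at 4.78, and *TPM4* led the knockdown cultures at 36.7.

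Among the tropomodulins, *TMOD2*, first described in neurons, lies on chromosome 15 (51751597 to 51816363, plus strand). It was read at 1122.4, 847.0 and 912.6 normalized counts in control and at 1271.4, 1219.5 and 1174.4 in knockdown cultures. The groups did not overlap, with control replicate 1 closest to the knockdown cultures. The log2 fold change was 0.35 (SE 0.11, 95% interval 0.10 to 0.60), and 0.26 to 0.47 with any 1 culture left out.

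*TMOD3*, the tropomodulin found in most tissues, is the neighbour of *TMOD2* (chromosome 15, 51829628 to 51947295, plus strand). Its normalized counts were 1665.3, 1202.2 and 1610.2 in control and 1203.9, 1625.3 and 1482.5 in knockdown cultures, so each group held a low and a high culture. As a log2 fold change this was -0.05 (SE 0.14, 95% interval -0.36 to 0.25). It ranged from -0.19 to 0.06 with any 1 culture left out, and its sign turned without control replicate 1, control replicate 3 or knockdown replicate 1. *TMOD3* shares 510 and 123 exonic bases with lncRNA genes on the opposite strand that have no counts of their own here.

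*TMOD1*, the tropomodulin of striated muscle and red blood cells, lies on chromosome 9 (97501180 to 97601743, plus strand). It was read at 539.8, 522.1 and 529.9 normalized counts in control and at 552.3, 513.2 and 461.6 in knockdown cultures, and the knockdown cultures spanned the control cultures. The log2 fold change was -0.06 (SE 0.11, 95% interval -0.3 to 0.18) and became 0.01 without knockdown replicate 3. It shares 1664 exonic bases with *TSTD2* on the opposite strand, whose log2 fold change was -0.07 (SE 0.11). The 3 tropomodulin genes together had 2983.8 ± 382.7 normalized counts in control and 3168.1 ± 170.7 in knockdown cultures. Their relative *TMOD4*, known from skeletal muscle, had 17.0 to 25.5 normalized counts in control and 16.7 to 38.6 in knockdown cultures.

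*CALD1* lies on chromosome 7 (134744252 to 134970729, plus strand) and was read at 3316.2, 2543.7 and 3533.1 normalized counts in control and at 2784.8, 2879.2 and 2927.4 in knockdown cultures. Control replicate 2 lay below, and the other control cultures above, all knockdown cultures. Its log2 fold change was -0.13 (SE 0.12, 95% interval -0.38 to 0.13). Without control replicate 2 it was -0.26, and over all fits with 1 culture left out it lay between -0.26 and -0.03.

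The genes around *TPM4* were compared next, with all other genes tested in the same fit. Of the 9 other tested genes within 500 kb, 1 was called, beside 10% of all tested genes: *FAM32A*, singled out after its values were seen, 82.4 kb after the end of *TPM4*, at a log2 fold change of 1.02 (SE 0.11, adjusted p = 0.00042). The median of the 9 was -0.02. The nearest tested gene after *TPM4*, *RAB8A*, which encodes a small GTPase of membrane traffic, lies 8.89 kb away and had a log2 fold change of -0.14 (SE 0.09, adjusted p = 0.37). The nearest before it, *WIZ*, lies 617.1 kb away and had 0.23 (SE 0.09, adjusted p = 0.14), with a call without control replicate 2 alone.

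**Figure D3:**
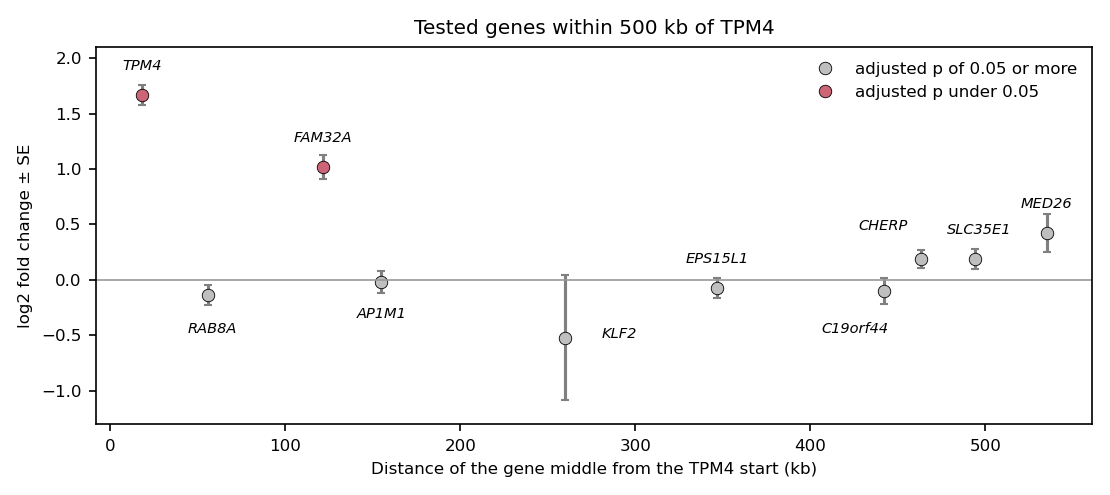
Log2 fold change, knockdown minus control, with its standard error (vertical axis) for the tested genes within 500 kb of *TPM4*, by distance from its start in kilobases (horizontal axis). *TPM4* (1.67) and *FAM32A* (1.02) were called, and the tested gene between them, *RAB8A*, lies at -0.14. Genes that were not tested are not drawn.

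The genes whose levels over the 6 cultures were most like those of *TPM4* were found by the root mean square difference of log2 CPM after each gene was centred, among 11291 genes averaging 100 counts or more. They were *HABP4* (0.046), *GANAB* (0.12), *OGFR* (0.13), *SETD7* (0.14) and *BICD2* (0.15), against a median of 0.86. *HABP4* encodes an RNA-binding protein, *GANAB* the catalytic subunit of glucosidase II in the endoplasmic reticulum, *OGFR* the opioid growth factor receptor, *SETD7* a lysine methyltransferase and *BICD2* an adaptor of the dynein motor. Their log2 fold changes lay between 1.42 (*OGFR* and *BICD2*) and 1.64 (*HABP4*), below the 1.67 of *TPM4*. Since a likeness to *TPM4* fixes a rise in the knockdown cultures, no test of these genes is given.

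The other genes of the actin filament show how the members' partners behaved. Of 132 genes listed by role, 118 were tested, 9 were called higher and 10 lower (16.1%, beside 10% of all tested genes), and the median log2 fold change was -0.06 against -0.02 over all genes. This is a description of the list, chosen with earlier results known. Of the 19 calls, 8 held in all 14 alternatives.

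**Figure D4:**
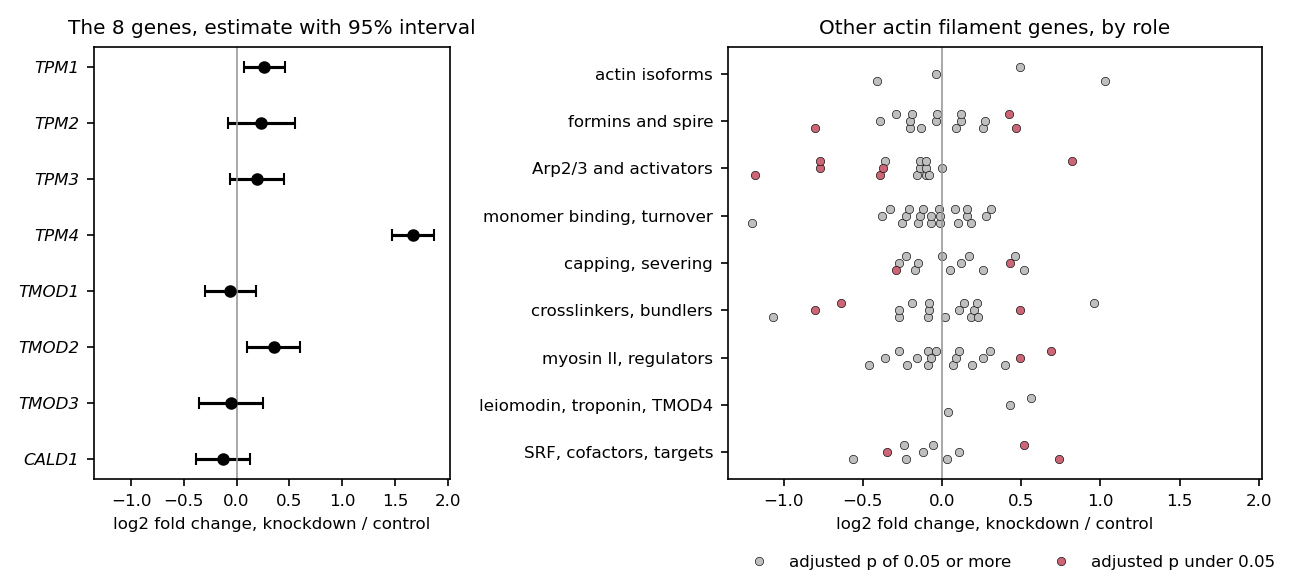
Log2 fold change, knockdown minus control (horizontal axis), of the 8 members and of the other actin filament genes by role, with called genes marked. *TPM4* at 1.67 lies beyond all other genes drawn, which range from -1.2 to 1.03.

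Genes that build filaments moved in both directions. Of 16 formins and relatives, 2 were called higher and 1 lower. *DIAPH1*, the formin downstream of RhoA, rose from 2577.5, 2732.9 and 2702.8 to 3679.3, 3730.4 and 3656.3 normalized counts (log2 fold change 0.47, SE 0.08, adjusted p = 0.0046). *DAAM1*, a formin of Wnt signalling, fell (log2 fold change -0.80, SE 0.15, adjusted p = 0.0076), and *FMNL1* rose (0.42, SE 0.12, adjusted p = 0.045). Of the 15 genes of the Arp2/3 complex, which branches filaments, and its activators, 5 were called lower and 1, *CTTN*, named for that after its values were seen, higher. *ARPC1B*, a subunit, went from 728.5, 1020.1 and 656.4 to 399.1, 326.5 and 336.0 normalized counts (log2 fold change -1.18, SE 0.17, adjusted p = 0.0015). *ARPC4*, another subunit (-0.77, SE 0.11, adjusted p = 0.0019), and *WASF3*, an activator (-0.77, SE 0.10, adjusted p = 0.00091), fell as well.

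Of the genes that bind or turn over monomers, none of 21 was called, with 4 at an unadjusted p under 0.05. Some alternative settings called genes of this list, *SSH1* under the most (6 of 14). None of the 4 tested actin genes was called either, with 3 at an unadjusted p under 0.05. DESeq2's test and a correction for GC content and transcript length called 2 of them, *ACTG1* and *ACTA2*. *ACTG1* was also called without control replicate 3, and *ACTA2* without control replicate 2. *SSH1*, *ACTG1* and *ACTA2* are named here after their values were seen. None of the 3 tested genes among *TMOD4*, leiomodins and troponins was called, with 0 at an unadjusted p under 0.05. Of 13 capping and severing genes, *ADD2*, an adductin, rose (0.43, SE 0.12, adjusted p = 0.042) and *CAPZA2*, a subunit of the barbed-end capping protein, fell (-0.29, SE 0.08, adjusted p = 0.046).

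Of 18 crosslinkers and bundlers, 1 was called higher and 2 lower: *FSCN1*, the bundling protein fascin, rose (0.49, SE 0.12, adjusted p = 0.029), while *ANLN*, the anillin of the contractile ring, fell (-0.80, SE 0.11, adjusted p = 0.0015) and *CNN2*, a calponin, fell (-0.64, SE 0.16, adjusted p = 0.026). Of 18 genes of myosin II and its regulators, 2 were called, both higher: *MYH9*, the heavy chain of nonmuscle myosin IIA (0.69, SE 0.18, adjusted p = 0.041), and *MYH14* (0.49, SE 0.13, adjusted p = 0.037). *MYH9* was read at 8186.5, 7241.8 and 12647.7 normalized counts in control and at 16508.1, 14627.6 and 14274.2 in knockdown cultures, with control replicate 3 closest to the knockdown cultures.

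Of 10 tested genes of SRF, its cofactors and targets, 2 were called higher and 1 lower. *CYR61* (now *CCN1*), a secreted target, rose (0.74, SE 0.13, adjusted p = 0.0061), *MKL1* (now *MRTFA*), the SRF cofactor released by actin polymerisation, rose (0.52, SE 0.10, adjusted p = 0.010), and *VCL*, vinculin of focal adhesions, fell (-0.35, SE 0.09, adjusted p = 0.024). The calls of *FMNL1*, *CAPZA2*, *ADD2*, *FSCN1*, *CNN2*, *MYH9*, *MYH14* and *VCL* were each lost without control replicate 1 and without any of the 3 knockdown replicates, those of *FMNL1* and *CAPZA2* also without control replicate 3, and that of *MKL1* without knockdown replicate 1. The correction for GC content and length ended the calls of *MYH9* and *MYH14*, testing without the filter on low counts those of *FMNL1*, *CAPZA2* and *MYH9*, and DESeq2 size factors or unscaled library sizes that of *CAPZA2*.

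Markers of muscle and fibroblasts, in which tropomyosins and caldesmon are abundant, were counted as well. Of 12 markers of skeletal or cardiac muscle, 3 were tested and 2 called higher: *TTN* (0.47, SE 0.14, adjusted p = 0.0499) and *MYH3* (0.54, SE 0.16, adjusted p = 0.0496). Both calls were lost without control replicate 1 or any of the knockdown replicates, and that of *MYH3* also under limma-voom and without the filter on low counts. The summed level of the list was 61.1 to 86.2 CPM in control and 94.3 to 113.9 in knockdown cultures. *TTN* made up most of it, with 48.7 to 70.6 and 77.1 to 92.6 CPM. No untested marker of the list exceeded 1.3 CPM in any culture. *DES*, among them, had 0.543 to 1.3 CPM in control and 0.346 to 0.578 in knockdown cultures. *MYOG*, *MYF5* and *MYL2* had 0 counts in every library, which allows up to 3 counts or 0.178 to 0.216 CPM. Of 8 smooth muscle markers 7 were tested and none called (50.0 to 60.9 and 58.4 to 76.2 CPM), and of 9 fibroblast markers 4 were tested and none called (42.2 to 58.7 and 47.0 to 71.4). Their part in the difference of *TPM4* was not tested.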

How the data were processed

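RNA-seq of polyA RNA from stranded libraries was measured in 3 knockdown and 3 control HEK293 cultures. The authors deposited whole-number counts of reads per gene, without normalization. The submitters' processing notes name FastQC 0.11.9, Trim Galore 0.6.6, STAR 2.7.9a, featureCounts 2.0.1 and hg38. The study's methods add the removal of ribosomal RNA and name other versions of STAR and featureCounts. Which versions made the counts is not known. The annotation and the strand and multi-mapping settings are not given in the sources used here.

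Genes were kept with filterByExpr (14877 of 26485), scaled with TMM, and compared by the robust quasi-likelihood test of edgeR 4.0.16 (R 4.3.3) without a block; calls needed an adjusted p (Benjamini-Hochberg) under 0.05. A normalized count is the count over the effective size of its library, times the mean effective size of the 6 libraries. Biological variation was 12.4%. The paper describes the knockdown experiments of each group as biologically independent. Whether the cultures came from separate passages is not stated, so p-values rest on the spread between these cultures. Symbols were matched to GENCODE release 44 (23161 directly, 1357 by RefSeq synonym, 1967 unmatched), and promoters are RefSeq's. The fit was tested on simulated data.

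The members and lists were chosen with earlier results of these data known. Named were all members, at most 3 called genes with the smallest p per role, the nearest tested gene on each side of *TPM4*, the 5 genes of most like profile, and pseudogene, antisense and numbered relatives of the members. Alternatives were DESeq2 1.42.0 size factors, unscaled library sizes, a filter of 10 counts per culture or none, DESeq2's own test, the replicate block, limma-voom (limma 3.58.1), a GC content and length correction (loess, span 0.3; known for 97.3% of genes) and each culture left out.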

Additional observations from a re-analysis of the deposited data

How the results depend on the processing

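Under the 14 alternatives the log2 fold changes of all 8 members moved by less than the SD between replicates. With 1 of 3 cultures of a group left out a larger move was hardly possible, so those fits show no stability by this measure. In them the sign turned for *TMOD1* (without knockdown replicate 3) and for *TMOD3* (without control replicate 1, control replicate 3 or knockdown replicate 1). The genes called were 1494 in all, 2715 with the correction for GC content and length and 530 to 2512 with 1 culture left out, 669 without control replicate 1, 2512 without control replicate 2, and 593, 536 and 530 without knockdown replicates 1, 2 and 3. Among the other actin filament genes, 19 were called, 29 with the correction and 8 to 31 with 1 culture left out. Among the members, whose choice fixed the call of *TPM4*, 1 was called, 3 with the correction (*TPM1*, *TPM4* and *TMOD2*), and 1 to 3 with 1 culture left out: *TMOD2* was added without control replicate 1, *TPM1* and *CALD1* (lower) without control replicate 2, and *TPM3* without control replicate 3. The share of *TPM4* among the tropomyosin reads differed by 22.2 to 24.6 percentage points with 1 culture left out. The cause of these shifts was not tested. For cultures of the same replicate number, the deviations from the group means had correlations of -0.199, -0.112 and -0.044. For knockdown replicate 1 and control replicate 3, whose column labels both end in 1, the correlation was -0.012. No culture correlated best with its own replicate number. Deviations from the mean of 3 cultures cancel within each group, so these values cannot tell whether the numbers pair the cultures. With the replicate block, 1333 genes, 18 other actin filament genes (61.1% higher, against 47.4%) and 1 member were called, the calls of *FMNL1*, *CAPZA2*, *VCL* and *MYH3* among the named genes were not kept, and the share of *TPM4* was not refitted. The 3 cultures a group and standard errors of 0.09 to 0.14 limit what could be seen of the members other than *TPM4*.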
